A study of Homo sapiens with 12 samples.

Results

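The BCL2 survival genes, the BAX-type effectors and the inhibitor of apoptosis (IAP) genes were taken as 10 named genes, BCL2, BCL2L1, MCL1, BCL2A1, BCL2L10, BAX, BAK1, BOK, XIAP and BIRC2. Each was found by its symbol and had exactly 1 row of its own in the expression table, so 10 of the 18417 genes tested belong to the set. They were measured in 2 established human cell lines, UKE1 and HEL, which are labelled as erythroleukemia cells and carry the JAK2V617F mutation, an activating change in the kinase JAK2. There were 4 groups of 3 arrays, namely UKE1 cells with ITF2357, untreated UKE1 cells, HEL cells with ITF2357 and untreated HEL cells. Treated cells grew for 6 h in 250 nM ITF2357 (givinostat), an inhibitor of histone deacetylases, and untreated cells for 6 h without it. All cultures held 10% fetal calf serum; UKE1 medium also held 10% horse serum, 10 µM hydrocortisone and HEPES. Line and medium therefore cannot be told apart in any comparison of UKE1 with HEL. The mutation is shared by all groups, so no comparison bears on it.

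Cells that receive death signals through the mitochondrial pathway die once BAX, BAK1 or BOK open pores in the outer mitochondrial membrane and release cytochrome c, which starts the caspase cascade. BCL2, BCL-XL (from BCL2L1), MCL1, BFL-1 (from BCL2A1) and the BCL2L10 protein hold the effectors in check, and BH3-only proteins such as BIM relieve that block. XIAP acts further down by inhibiting caspases directly, while cIAP1 (from BIRC2) is a ubiquitin ligase of tumour necrosis factor receptor and NF-kappaB signalling. BCL-XL is known as the survival protein of maturing erythroid cells and platelets, and MCL1 as that of myeloid progenitors.

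Values are the authors' log2 RMA levels, on which a difference of 1 is a factor of 2. A change is ITF2357 minus untreated, with the standard error (SE) of the fit, and a gene is said to have risen, fallen or differed where limma's Benjamini-Hochberg adjusted p over all genes was under 0.05. Over all rows, arrays correlated at r of 0.994 to 0.996 within a group, at 0.981 to 0.985 across treatments of the same line, and at 0.928 to 0.943 across lines. Triplicates are called independent in the series text, and the p-values measure the spread among them alone. No detection flag comes with the table. BCL2A1, BCL2L10 and BOK had means over all arrays of 5.32, 5.6 and 6.89, under the 7.01 of the median gene. Levels are compared between groups of 1 gene and not between members, since each array row has its own scale. Standing against the median gene and means over marker lists do cross rows, and are rough guides for that reason. Bulk RNA does not separate fewer expressing cells from less RNA per cell.

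The label was checked against 8 measured erythroid markers. In HEL, 6 of 8 lay above the median gene with and without drug, whereas in UKE1 this held for 1 of 8 with ITF2357 and 2 of 8 untreated. The defining erythroid factor GATA1 had a mean level of 6.86 in treated UKE1, 7.46 in untreated UKE1, 9.78 in treated HEL and 10.28 in untreated HEL. AHSP, which codes for a chaperone of alpha globin, had group means between 3.69 and 3.97. The 5 measured megakaryocyte markers were above the median gene in every group.

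BCL2L1 and XIAP fell in both lines, and MCL1, BCL2A1 and BAK1 rose in both. Upstream sequences are shown for 4 of these 5 genes, all but MCL1, so that the windows of genes that moved together can be read side by side. The windows are RefSeq's on build GRCh38.p14, 250 bases before to 50 bases after an annotated start, read 5′ to 3′ on the gene's strand. BCL2L1 has 2 such starts in that table and XIAP has 3, of which the first is printed. Capitals mark matches, on either strand, to the STAT site TTCNNNGAA, the GATA sites AGATAA and TGATAA, the CCAAT box CCAAT, the GC box GGGCGG and the TATA box TATAAA.
BCL2L1, first start, chr20:31723914-31724213, minus strand: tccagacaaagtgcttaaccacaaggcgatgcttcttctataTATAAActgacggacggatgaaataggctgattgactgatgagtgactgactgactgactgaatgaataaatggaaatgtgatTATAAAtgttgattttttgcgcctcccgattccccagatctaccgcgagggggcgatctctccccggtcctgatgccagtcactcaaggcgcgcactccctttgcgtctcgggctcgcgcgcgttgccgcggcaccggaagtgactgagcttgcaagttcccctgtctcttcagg
BCL2L1, second start, chr20:31722819-31723118, minus strand: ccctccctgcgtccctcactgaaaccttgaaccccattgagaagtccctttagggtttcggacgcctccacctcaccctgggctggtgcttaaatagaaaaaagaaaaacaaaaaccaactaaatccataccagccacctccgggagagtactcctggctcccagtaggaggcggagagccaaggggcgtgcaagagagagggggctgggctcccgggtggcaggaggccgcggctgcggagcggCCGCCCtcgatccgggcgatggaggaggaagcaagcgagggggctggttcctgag
XIAP, chrX:123859458-123859757, plus strand: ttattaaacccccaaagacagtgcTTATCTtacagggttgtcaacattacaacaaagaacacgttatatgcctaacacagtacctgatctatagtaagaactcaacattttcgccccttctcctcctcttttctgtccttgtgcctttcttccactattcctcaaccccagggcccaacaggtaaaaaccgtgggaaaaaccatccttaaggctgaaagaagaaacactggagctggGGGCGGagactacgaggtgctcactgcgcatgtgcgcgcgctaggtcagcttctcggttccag
BCL2A1, chr15:79971147-79971446, minus strand: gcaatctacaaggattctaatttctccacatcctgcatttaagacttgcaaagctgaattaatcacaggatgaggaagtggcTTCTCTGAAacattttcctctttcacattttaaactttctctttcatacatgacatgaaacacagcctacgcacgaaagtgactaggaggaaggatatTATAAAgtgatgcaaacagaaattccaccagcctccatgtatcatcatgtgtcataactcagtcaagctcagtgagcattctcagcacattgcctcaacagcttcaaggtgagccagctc
BAK1, chr6:33580227-33580526, minus strand: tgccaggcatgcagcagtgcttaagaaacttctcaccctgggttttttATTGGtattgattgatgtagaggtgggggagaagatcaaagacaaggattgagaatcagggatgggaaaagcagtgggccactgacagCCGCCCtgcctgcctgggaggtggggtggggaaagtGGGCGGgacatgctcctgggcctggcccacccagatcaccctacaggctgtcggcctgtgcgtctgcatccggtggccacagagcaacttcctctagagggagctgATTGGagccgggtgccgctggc

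The windows differed in base composition. The BCL2A1 window had a GC content of 41% and 2 CpG dinucleotides, and the first BCL2L1 window 52% and 20. XIAP had 48% and 10, and BAK1 58.7% and 7. A STAT site was found only at BCL2A1 among the 12 windows of the 8 genes with an entry, 168 bases upstream of the start. Of all 35116 windows of the same length in the table, 7.66% held that motif. The first XIAP window held an AGATAA match 226 bases upstream and a GC box 13 bases upstream. AGATAA occurred in 10.3% of all windows, TGATAA in 7.53%, CCAAT in 34.6%, GGGCGG in 45% and TATAAA in 11.5%. The first BCL2L1 window held 2 TATAAA matches, 208 and 125 bases upstream of the start, and no STAT or GATA match. BAK1 held 2 CCAAT and 2 GC boxes. A match describes letters in the window and says nothing of binding. The windows used here had no entry for MCL1 or BCL2L10.

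With ITF2357, members moved in both directions. In UKE1, 3 members rose, 4 fell and 3 were not called, and in HEL, 4 rose, 3 fell and 3 were not called. Over all genes, 44.3% were called in UKE1 (22% higher and 22.3% lower) and 42.4% in HEL (22.6% higher and 19.9% lower), against 7 of 10 members in each line. The median change of the 10 was 0.167 in UKE1 and 0.016 in HEL, against 0.0108 and -0.0127 over all genes. MCL1, BCL2A1 and BAK1 rose in both lines and BCL2L1 and XIAP fell in both, while 14% and 12.9% of all genes were called up and down in both. BCL2 and BAX were called in UKE1 only, BCL2L10 and BIRC2 in HEL only, and BOK in neither. No member was called in opposite directions, as 2.1% of all genes were. None of the 10 changed by 2-fold or more in either line. For 9 of 10 members in UKE1 and 8 of 10 in HEL, every treated array lay on one side of every untreated array, as it did for 53.9% and 49% of all genes.

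Most megakaryocyte markers fell with the drug as well, and erythroid markers were mixed. Of all genes, 22.3% fell in UKE1 and 19.9% in HEL. Of 5 megakaryocyte markers, 4 fell in UKE1 and 3 in HEL, and none rose past the threshold. Their mean level on an array was 8.53 to 8.64 in treated UKE1, against 8.92 to 9.07 in untreated UKE1, and 9.84 to 10.01 in treated HEL, against 10.22 to 10.34 in untreated HEL. Of the 8 erythroid markers, 0 rose and 1 fell in UKE1, and 2 rose and 3 fell in HEL. GATA1, which fell in both lines, changed by -0.60 in UKE1 and -0.49 in HEL (adjusted p = 1.7e-05 and 0.000113). TFRC (0.25) and SLC4A1 (0.36) rose in HEL. The part of these markers in the members' responses, the decrease of BCL2L1 among them, was not tested.

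**Figure D1:**
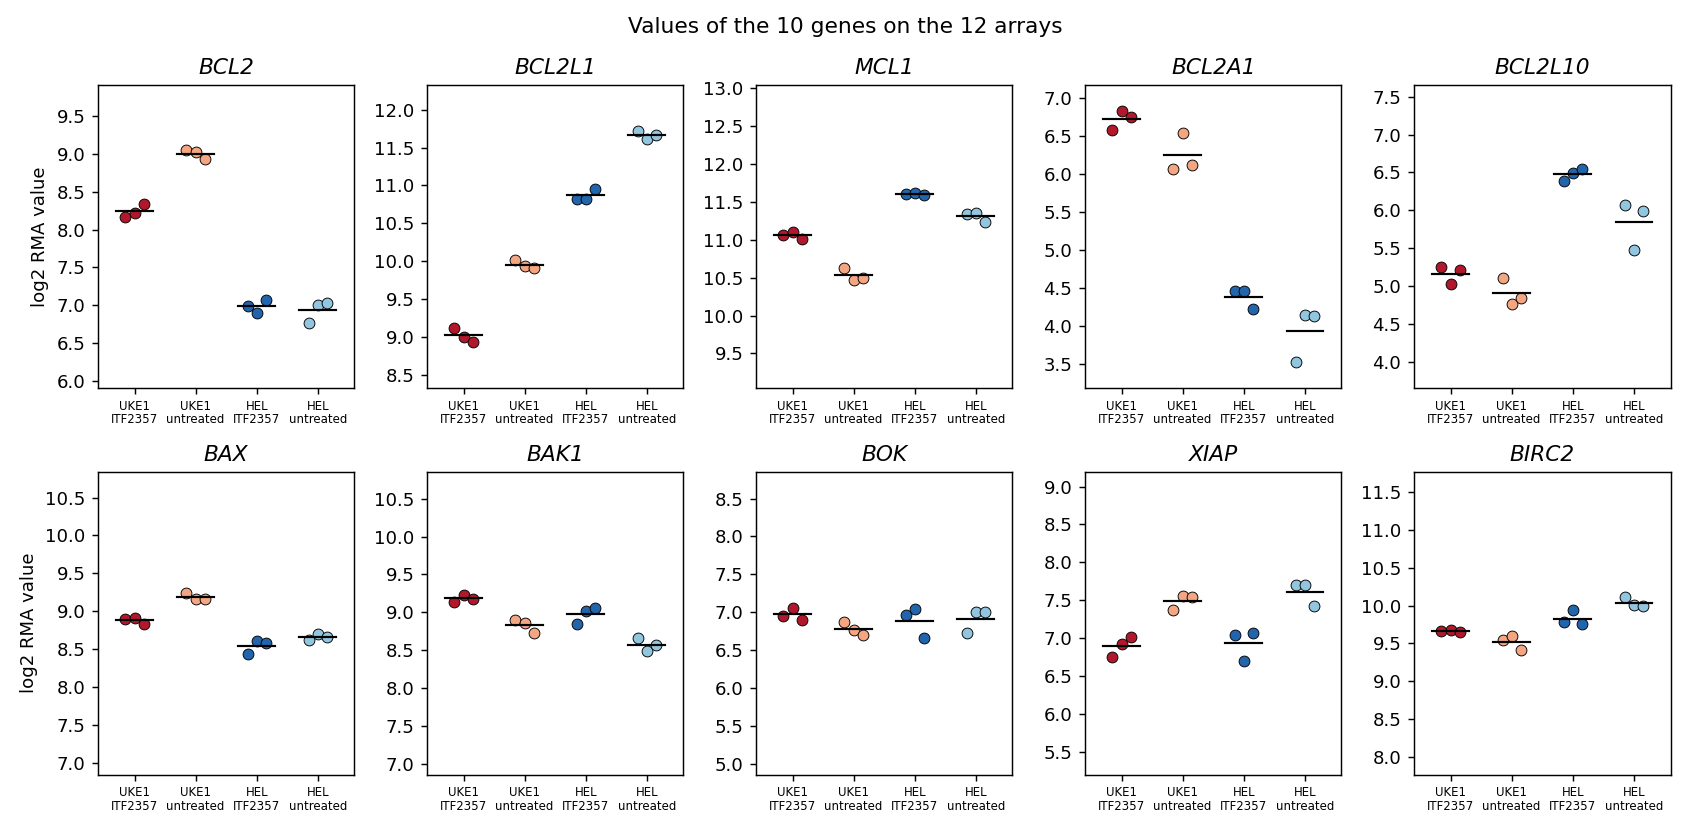
Log2 RMA level of each gene on the 12 arrays, 1 panel a gene and 1 point an array, with a black line at the mean of each group of 3; every panel spans the same log2 height. BCL2L1 separates all 4 groups, with treated UKE1 lowest, BCL2 is high in UKE1, and BOK shows nearly level groups.

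**Figure D2:**
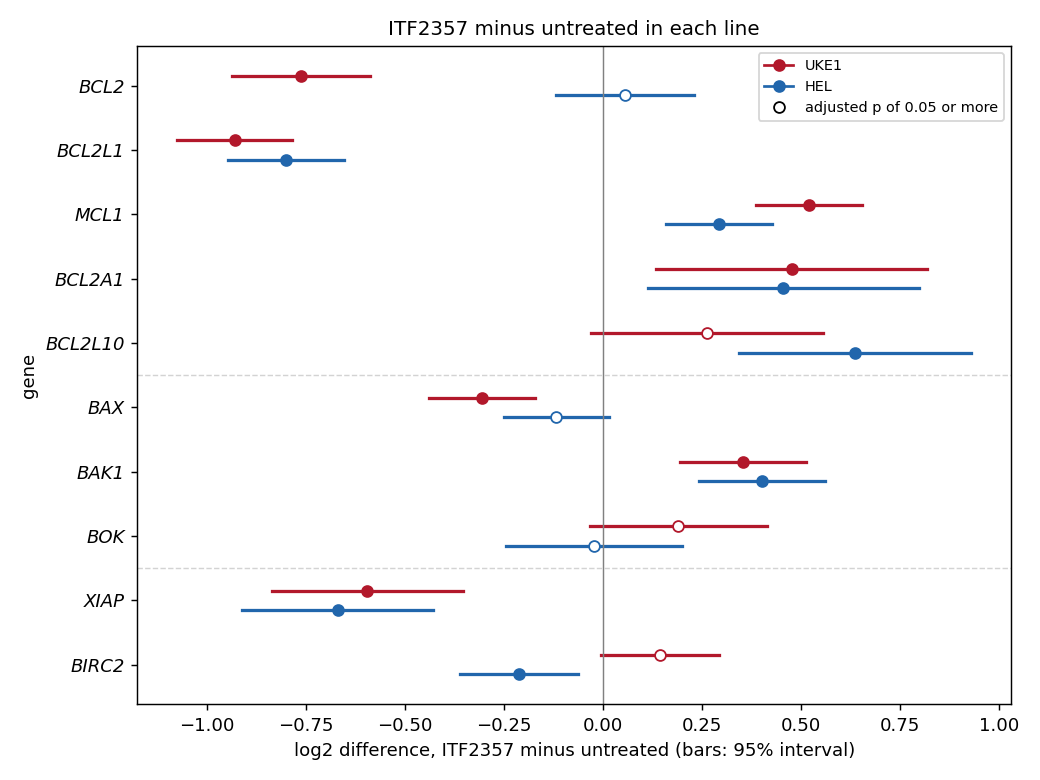
Change with ITF2357 (log2, treated minus untreated) of the 10 genes in UKE1 (red) and HEL (blue), with 95% intervals of the fit; filled points have an adjusted p under 0.05. Dashed lines part the survival genes, the effectors and the IAP genes. BCL2L1 and XIAP lie left of 0 in both lines and BCL2 in UKE1 alone.

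Among the survival genes, BCL2L1 (transcript cluster 8065569) had the lowest adjusted p of the set in both lines. Its levels were 9.12, 9.003 and 8.93 in treated UKE1, against 10.01, 9.94 and 9.90 in untreated UKE1. In HEL they were 10.82, 10.82 and 10.95 with ITF2357, against 11.72, 11.61 and 11.66 without. No array of any group overlapped another group. The changes of -0.93 ± 0.067 in UKE1 and -0.80 ± 0.067 in HEL (SE, n = 3 arrays a group, limma adjusted p = 8.9e-08 and 3.9e-07) are 1.904-fold and 1.74-fold decreases. Of all genes, 5.41% changed by more in UKE1 and 7.31% in HEL, in either direction. The responses differed by -0.13 ± 0.095 (UKE1 minus HEL, 95% interval -0.34 to 0.076, adjusted p = 0.374), so a difference between lines was not detectable. The row covers the whole transcript cluster and does not separate the long, protective splice form from the short, death-promoting one.

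BCL2 (transcript cluster 8023646), the founding member of the family, fell in UKE1 but was not called in HEL. UKE1 arrays read 8.16, 8.21 and 8.34 with drug, against 9.05, 9.03 and 8.93 without, with no overlap. The change was -0.76 ± 0.081 (adjusted p = 3.03e-06), a 1.70-fold decrease. HEL arrays read 6.997, 6.898 and 7.07 with drug, against 6.77, 7.002 and 7.03 without, and the groups overlapped. The change in HEL was 0.055 ± 0.081 (95% interval -0.12 to 0.23, adjusted p = 0.647). BCL2 means in HEL, 6.99 with drug and 6.93 untreated, were just under the 7.01 of the median gene. No flag shows whether these HEL arrays were above background. The responses differed by -0.82 ± 0.11 (UKE1 minus HEL, adjusted p = 0.000179). Only 3.9% of all genes had a larger difference between the lines' responses in either direction.

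MCL1 (transcript cluster 7919751), a short-lived survival protein, rose in both lines, against the direction of BCL2L1. In UKE1 its levels were 11.06, 11.10 and 11.01 with drug and 10.63, 10.47 and 10.50 without. In HEL they were 11.60, 11.62 and 11.59 with drug and 11.34, 11.36 and 11.23 without. Treated and untreated arrays were apart in each line. The increases were 0.52 ± 0.062 in UKE1 (1.43-fold, adjusted p = 9.6e-06) and 0.29 ± 0.062 in HEL (1.22-fold, adjusted p = 0.00152). Their difference of 0.23 ± 0.088 was not called (adjusted p = 0.0802). It was called with only the genes above the median gene (adjusted p = 0.0347) and with an intensity trend and robust prior (adjusted p = 0.0171). It was also called without untreated HEL replicate 3 (adjusted p = 0.0492) and without untreated UKE1 replicate 1 (adjusted p = 0.045). No other setting called it. After median centring it was 0.17 (adjusted p = 0.206), with all rows the adjusted p was 0.113, and with 1 array left out it reached 0.171.

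BCL2A1 (transcript cluster 7990818), a target of NF-kappaB in blood cells, rose by like amounts at low levels. UKE1 arrays read 6.58, 6.84 and 6.75 with drug, against 6.07, 6.54 and 6.13 without. HEL arrays read 4.46, 4.46 and 4.22 with drug, against 3.52, 4.14 and 4.12 without. Treated and untreated arrays were apart in each line, by narrow gaps, and untreated HEL replicate 1 was the lowest array. The increases were 0.48 ± 0.16 in UKE1 (adjusted p = 0.0252) and 0.45 ± 0.16 in HEL (adjusted p = 0.0327), with the largest errors of the set, and no flag shows whether the HEL arrays were above background. The increases differed by 0.021 ± 0.22 between the lines (95% interval -0.46 to 0.50, adjusted p = 0.963). Without untreated HEL replicate 1 the HEL change was 0.25 (adjusted p = 0.154), and without treated HEL replicate 1 or 2 the adjusted p was 0.0918 or 0.0971. The UKE1 call was lost without untreated UKE1 replicate 1 or 3 (adjusted p = 0.0976 or 0.083) and without treated UKE1 replicate 2 or 3 (adjusted p = 0.0858 or 0.067). With all rows of the table in the fit neither call held (adjusted p = 0.0565 in UKE1 and 0.0711 in HEL).

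BCL2L10 (transcript cluster 7988852), a relative best known from oocytes, rose in HEL. HEL arrays read 6.39, 6.49 and 6.55 with drug, against 6.06, 5.47 and 5.99 without, and did not overlap. The change was 0.64 ± 0.14 (1.55-fold, adjusted p = 0.00151). With 1 array left out it was 0.45 to 0.75 (adjusted p at most 0.00805). In UKE1 the arrays read 5.25, 5.02 and 5.21 with drug, against 5.11, 4.76 and 4.84 without. These overlapped, and the change of 0.26 ± 0.14 was not called (adjusted p = 0.143). It was called without untreated HEL replicate 2, which enters through the shared estimate of the spread (adjusted p = 0.0369). The difference between the responses was -0.37 ± 0.19 (adjusted p = 0.186), and -0.19 without untreated HEL replicate 2 (adjusted p = 0.391). No flag shows whether BCL2L10 was above background in either line.

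The effectors BAX and BAK1, which carry out the same step, did not share a direction. BAX (transcript cluster 8030158) read 8.896, 8.92 and 8.84 in treated UKE1, against 9.24, 9.16 and 9.16 in untreated UKE1. In HEL it read 8.44, 8.61 and 8.58 with drug, against 8.62, 8.697 and 8.66 without. The groups did not overlap in either line, but BAX fell past the threshold in UKE1 alone, by 0.31 ± 0.062 on the log2 scale (adjusted p = 0.000939). The HEL change was -0.12 ± 0.062 (adjusted p = 0.152), and the difference between responses of -0.19 ± 0.087 was not called (adjusted p = 0.143).

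BAK1 (transcript cluster 8125766) rose in both lines by similar amounts. Its levels were 9.14, 9.22 and 9.18 in treated UKE1, against 8.905, 8.86 and 8.73 in untreated UKE1. They were 8.85, 9.01 and 9.06 in treated HEL, against 8.66, 8.49 and 8.57 in untreated HEL. Neither line's groups overlapped. The increases were 0.35 ± 0.073 in UKE1 (1.28-fold, adjusted p = 0.00118) and 0.40 ± 0.073 in HEL (1.32-fold, adjusted p = 0.000448). Their difference was -0.048 ± 0.10 (95% interval -0.27 to 0.18, adjusted p = 0.789). RefSeq lists the pseudogenes BAK1P1 and BAK1P2, and XIAPP1, XIAPP2 and XIAPP3 for XIAP. Whether probes of these rows also read pseudogene transcripts was not tested.

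BOK (transcript cluster 8049876), an effector that can act without BH3-only activation, was the flattest member. All 12 arrays lay between 6.655 and 7.05. Its changes were 0.19 ± 0.10 in UKE1 (adjusted p = 0.165) and -0.023 ± 0.10 in HEL (adjusted p = 0.894). The 4 group means spanned 0.189, and groups next to each other in the order of means overlapped. Treated and untreated UKE1, first and last in that order, did not overlap (6.90 to 7.05 against 6.70 to 6.87).

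Of the IAP genes, XIAP (transcript cluster 8169742) fell in both lines. Its arrays read 6.75, 6.92 and 7.02 in treated UKE1, against 7.37, 7.56 and 7.55 in untreated UKE1. In HEL they read 7.04, 6.70 and 7.07 with drug, against 7.696, 7.697 and 7.42 without. No treated array reached an untreated one in its own line. The decreases were -0.59 ± 0.11 in UKE1 (1.51-fold, adjusted p = 0.00053) and -0.67 ± 0.11 in HEL (1.59-fold, adjusted p = 0.000205). The responses differed by 0.075 ± 0.16 (95% interval -0.27 to 0.42, adjusted p = 0.784).

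BIRC2 (transcript cluster 7943424) moved differently in the lines. It read 9.67, 9.67 and 9.65 in treated UKE1, against 9.55, 9.597 and 9.42 in untreated UKE1. In HEL it read 9.79, 9.94 and 9.76 with drug, against 10.12, 10.01 and 9.99 without. Treated arrays lay above the untreated ones in UKE1 and below them in HEL. The HEL decrease was -0.21 ± 0.069 (1.16-fold, adjusted p = 0.0226), and the UKE1 change 0.14 ± 0.069 (adjusted p = 0.112). UKE1 responded with 0.36 ± 0.097 more than HEL, and this was called (adjusted p = 0.017). After median centring that difference was 0.30 (adjusted p = 0.0552) and the HEL change -0.19 (adjusted p = 0.0551). The HEL call was also lost with the 6 HEL arrays alone (adjusted p = 0.0537) and without untreated HEL replicate 1, treated HEL replicate 1 or treated HEL replicate 3 (adjusted p = 0.0851, 0.0759 or 0.0837). After quantile normalization the UKE1 increase was called (0.18, adjusted p = 0.0313).

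BCL2 and BIRC2 were thus the 2 of 10 members whose responses were called different between the lines, 1 lower and 1 higher in UKE1. After median centring only BCL2 kept this call. Over all genes 23.9% had such a call as deposited, 10.1% higher and 13.8% lower in UKE1. Higher calls were 42.2% of them as deposited and 30.6% after median centring. The remaining 8 members, BCL2L1, MCL1, BCL2A1, BCL2L10, BAX, BAK1, BOK and XIAP, were not called in this test.

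The lines differed in 8 of the 10 genes, and for some by more than any change with drug. Of the 10, 4 were higher and 4 lower in untreated UKE1 than in untreated HEL, and again 4 and 4 with ITF2357. Among all genes, 67.7% differed between the untreated lines (33.3% higher and 34.4% lower in UKE1) and 68% between the treated lines (34% in each direction). Arrays of the lines did not overlap for 8 of 10 members with ITF2357 and 8 of 10 untreated, against 72.3% and 69.4% of all genes. BCL2A1, BCL2, BCL2L1 and, with drug, BCL2L10 differed by 2-fold or more on the array scale.

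The survival genes were divided between the lines. BCL2A1 was higher in UKE1 than in HEL, by 2.34 ± 0.16 treated (adjusted p = 1.08e-08) and 2.32 ± 0.16 untreated (adjusted p = 1.12e-08). No fold is given for it, since its HEL means of 4.38 treated and 3.93 untreated are not shown to be above background. BCL2 was 2.38-fold higher in treated UKE1 than in treated HEL (1.25 ± 0.081, adjusted p = 6.53e-09) and 4.19-fold higher untreated (2.07 ± 0.081, adjusted p = 2.37e-11). Its HEL means of 6.99 treated and 6.93 untreated are likewise not shown to be above background. BCL2L1 ran the other way, 3.59-fold lower in UKE1 with drug (-1.85 ± 0.067, adjusted p = 1.26e-11) and 3.29-fold lower untreated (-1.72 ± 0.067, adjusted p = 2.5e-11). MCL1 and BCL2L10 were also lower in UKE1. MCL1 differed by -0.55 ± 0.062 treated and -0.77 ± 0.062 untreated (adjusted p = 2.88e-06 and 6.8e-08). After quantile normalization the MCL1 differences were smaller, -0.37 treated and -0.60 untreated, and those of BCL2L1 were -1.72 and -1.54. BCL2L10 differed by -1.31 ± 0.14 treated and -0.94 ± 0.14 untreated (adjusted p = 1e-06 and 2.84e-05). Its UKE1 means of 5.16 treated and 4.90 untreated are also not shown to be above background.

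The effectors BAX and BAK1 were higher in UKE1, and the IAP genes were not. BAX differed by 0.34 ± 0.062 between treated lines and 0.53 ± 0.062 between untreated lines (adjusted p = 0.000226 and 3.37e-06). After quantile normalization the BAX differences were 0.44 treated and 0.61 untreated. BAK1 differed by 0.21 ± 0.073 treated and 0.26 ± 0.073 untreated (adjusted p = 0.0204 and 0.00635), and by 0.32 treated after quantile normalization. The treated BAK1 call was lost without treated HEL replicate 1 (adjusted p = 0.106) or treated UKE1 replicate 2 (adjusted p = 0.068). XIAP differed by -0.037 ± 0.11 treated and -0.11 ± 0.11 untreated, and BOK by 0.083 ± 0.10 treated and -0.13 ± 0.10 untreated, none of them called. BIRC2 was lower in UKE1, by -0.16 ± 0.069 treated (adjusted p = 0.0484, just past the threshold) and -0.52 ± 0.069 untreated (adjusted p = 1.21e-05). The untreated difference was -0.41 after quantile normalization. The treated BIRC2 call was lost without any 1 of these arrays: treated UKE1 replicate 1, 2 or 3, untreated UKE1 replicate 1, treated HEL replicate 1 or 2, and untreated HEL replicate 2 or 3 (differences of -0.18 to -0.11, adjusted p of 0.0511 to 0.196). It was also lost after quantile normalization (-0.025, adjusted p = 0.747), after median centring (adjusted p = 0.0527), with all rows (adjusted p = 0.0633) and with the 6 treated arrays alone (adjusted p = 0.0545).

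**Figure D3:**
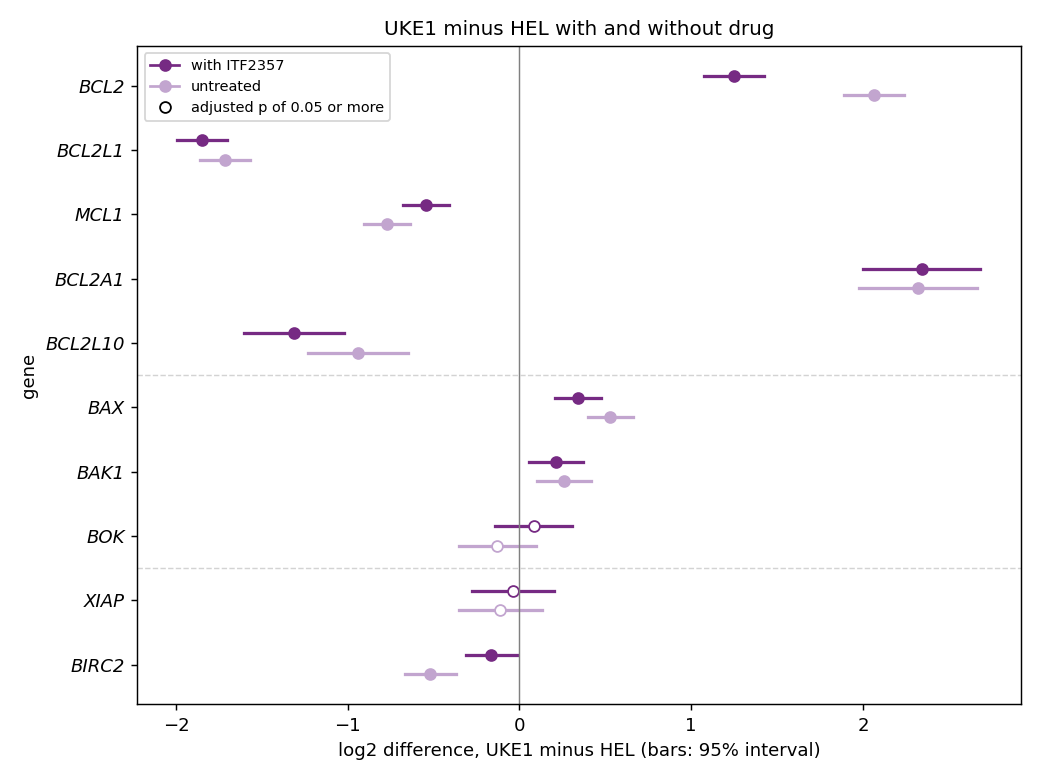
UKE1 minus HEL (log2) for the 10 genes with ITF2357 (dark) and untreated (light), with 95% intervals of the fit; filled points have an adjusted p under 0.05. BCL2A1 and BCL2 lie far right and BCL2L1 far left. Treated points lie nearer 0 than untreated ones for BCL2, MCL1, BAX, BAK1, BOK, XIAP and BIRC2, and farther for BCL2L1, BCL2A1 and BCL2L10.

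Markers of other cell types differed between the lines too, as did 68% of all genes with drug and 67.7% untreated. Of 4 epithelial markers, 2 were higher and 1 lower in UKE1 than in HEL, with and without drug. Of 4 fibroblast markers, 2 were higher in UKE1 with drug and 1 untreated, and none was lower past the threshold. Of 4 T cell markers, 2 were higher and 1 lower in UKE1 than in HEL, with and without drug. The mean level of that list on an array was 7.03 to 7.12 in treated UKE1, 7.21 to 7.27 in untreated UKE1, 5.15 to 5.33 in treated HEL and 5.33 to 5.40 in untreated HEL. Of 3 measured B cell markers, 3 were higher in treated UKE1 than in treated HEL and 2 in untreated UKE1 than in untreated HEL, and none was lower past the threshold. That list mean was 5.96 to 6.11 in treated UKE1, 6.00 to 6.11 in untreated UKE1, 4.99 to 5.11 in treated HEL and 5.17 to 5.28 in untreated HEL. Of the 8 erythroid markers, 7 were lower in UKE1 in each condition, and the list mean was 6.47 to 6.52 in treated UKE1, 6.52 to 6.60 in untreated UKE1, 8.27 to 8.36 in treated HEL and 8.46 to 8.49 in untreated HEL. Of 5 megakaryocyte markers 4 were lower in treated UKE1 than in treated HEL, and 5 were lower in untreated UKE1 than in untreated HEL. The part of these lists in the BCL2, BCL2A1 and BCL2L1 differences was not tested.

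The order of the 4 groups differed by gene. BCL2L1 was highest in untreated HEL, followed by treated HEL, untreated UKE1 and treated UKE1. MCL1 and BCL2L10 were highest in treated HEL, followed by untreated HEL, treated UKE1 and untreated UKE1. BCL2A1 was highest in treated UKE1, followed by untreated UKE1, treated HEL and untreated HEL, and BCL2 and BAX were highest in untreated UKE1. No 2 neighbours in the order overlapped for BCL2L1, MCL1, BCL2A1, BAX and BIRC2. How common that is over all genes was not counted. The neighbours that overlapped were treated and untreated HEL for BCL2, treated and untreated UKE1 for BCL2L10, and treated HEL and untreated UKE1 for BAK1. For XIAP the 2 untreated groups overlapped, as did the 2 treated groups, while each treated group lay below each untreated group.

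Genes with the most similar profiles were found by the root mean square (RMS) difference of mean-centred log2 levels over the 12 arrays, for the 9 members whose group means spanned at least 0.5. BCL2 was nearest to NKG7, a granule protein of cytotoxic lymphocytes (RMS 0.0979), S1PR4 (0.11) and NR5A2 (0.117). BCL2L1 was nearest to YRDC (0.123), PPIF, which codes for cyclophilin D of the mitochondrial matrix (0.124), and KRI1 (0.125). MCL1 was nearest to the coatomer gene COPA (0.0555), the sirtuin SIRT7 (0.0668) and the antizyme OAZ1 (0.0678). BCL2A1 was nearest to HLA-DMB (0.168), TNFRSF1B, a receptor of tumour necrosis factor (0.187), and HSD17B8 (0.217).

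XIAP was nearest to MDM2, the ubiquitin ligase of p53 (RMS 0.103), to TOMM40, the pore of the mitochondrial import complex (0.113), and to CNOT2 (0.118). BIRC2 was nearest to TMEM39A (0.0623), CRLS1, the cardiolipin synthase (0.0699), and EIF3M (0.0729). BAX was nearest to TRABD (0.0512), METAP1 (0.058) and ORAI3 (0.0629), BAK1 to MAP1S (0.0656), SLC25A42 (0.0714) and DALRD3 (0.0777), and BCL2L10 to PEX11A (0.143), NPRL2 (0.144) and OSR2 (0.159). These distances describe 12 arrays that share 2 lines and 1 treatment, and carry no test.

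A further 50 genes of the pathway, in 8 lists, showed where the members' partners stood; 44 were measured. Of these, 16 rose and 11 fell in UKE1, and 16 rose and 7 fell in HEL. Over all genes, 22% rose and 22.3% fell in UKE1, and 22.6% rose and 19.9% fell in HEL. The list counts that follow are to be read beside those shares. Among 8 BH3-only genes, whose products bind the survival proteins, 4 rose and 1 fell in UKE1 and 3 rose and 0 fell in HEL, with list medians of 0.273 and 0.0373 against 0.0108 and -0.0127 over all genes. BCL2L11, which codes for BIM, rose by 1.08 ± 0.075 in UKE1 and 1.03 ± 0.075 in HEL. PMAIP1 (NOXA), the partner of MCL1, rose by 0.85 ± 0.069 in UKE1, and its HEL change was 0.026 ± 0.069; the difference was called (adjusted p = 4.48e-05). BID, which activates BAX and BAK1 after cleavage, changed by -0.51 ± 0.065 in UKE1, and BMF rose by 1.39 ± 0.066 in UKE1 and 0.70 ± 0.066 in HEL. BAD, which binds BCL2 and BCL-XL, rose by 0.30 ± 0.082 in UKE1 and 0.63 ± 0.082 in HEL.

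Of 6 measured BCL2-like relatives, 4 rose and 1 fell in UKE1 and 3 rose and 1 fell in HEL (medians 0.468 and 0.316). BCL2L12 rose in UKE1 (0.49) and HEL (0.54), as did the mitophagy receptors BNIP3 (0.49 and 0.45) and BNIP3L (0.45 and 0.63). BCL2L13, another mitophagy receptor, fell in UKE1 (-0.27) and HEL (-0.51), and BCL2L15 rose in UKE1 (0.82). Of 4 measured other BIR-domain genes, 1 rose and 2 fell in UKE1 and 0 rose and 1 fell in HEL (medians -0.172 and -0.144). NAIP, a sensor of bacterial proteins, rose in UKE1 (0.23, adjusted p = 0.0166) and fell in HEL (-0.20, adjusted p = 0.0366), with a called difference of 0.43 ± 0.10 (adjusted p = 0.00695). BIRC5, survivin, fell in UKE1 (-0.29), as did BIRC7 (-0.28).

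Downstream of the effectors, 3 of 7 measured apoptosome and caspase genes rose and 2 fell in UKE1, and 5 rose and 1 fell in HEL (medians -0.0273 and 0.508). APAF1, the scaffold that cytochrome c assembles, rose by 1.18 ± 0.082 in UKE1 and 1.54 ± 0.082 in HEL, and CASP9, the caspase it activates and XIAP inhibits, by 0.68 ± 0.076 in UKE1 and 0.62 ± 0.076 in HEL. CASP6 fell in UKE1 (-0.60) and rose in HEL (0.51), and CASP10 rose in UKE1 (0.79) and HEL (1.62). Of 4 genes whose products counter the IAPs, 1 rose and 1 fell in UKE1 and 1 rose and 2 fell in HEL (medians 0.025 and -0.143). XAF1, an XIAP-binding factor, fell by more in UKE1 (-1.21) than in HEL (-0.30), a called difference of -0.91 ± 0.14 (adjusted p = 0.000305). DIABLO rose in UKE1 (0.24), HTRA2 fell in HEL (-0.43) and SEPTIN4 rose in HEL (0.22).

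Of 5 genes for enzymes that mark or unmark MCL1 with ubiquitin, 2 rose and 1 fell in UKE1 and 2 rose and 0 fell in HEL (medians 0.0428 and 0.142). The ligase subunit FBXW7, which marks MCL1 for breakdown, rose in UKE1 (0.58) and HEL (0.52). USP9X, which removes that mark, rose in UKE1 (0.36) and HEL (0.35), and BTRC, a ligase subunit, fell in UKE1 (-0.27). Of 4 measured cIAP partners, 1 rose and 2 fell in UKE1 and 1 rose and 1 fell in HEL (medians -0.114 and -0.118). TRAF3, the adaptor through which cIAPs act on the kinase NIK, fell in UKE1 (-0.72) and HEL (-0.54), and MAP3K14, which codes for NIK, rose in UKE1 (0.58) and HEL (0.50). CFLAR, an inhibitor of caspase activation at death receptors, fell in UKE1 (-0.34).

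Of 6 VDAC channel genes and BAX partners, 0 rose and 1 fell in UKE1 and 1 rose and 1 fell in HEL (medians -0.0209 and -0.0255). MOAP1, which activates BAX, rose in HEL (0.62), and VDAC1 fell in HEL (-0.33). SH3GLB1, a binding partner of BAX, fell in UKE1 (-0.26).

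**Figure D4:**
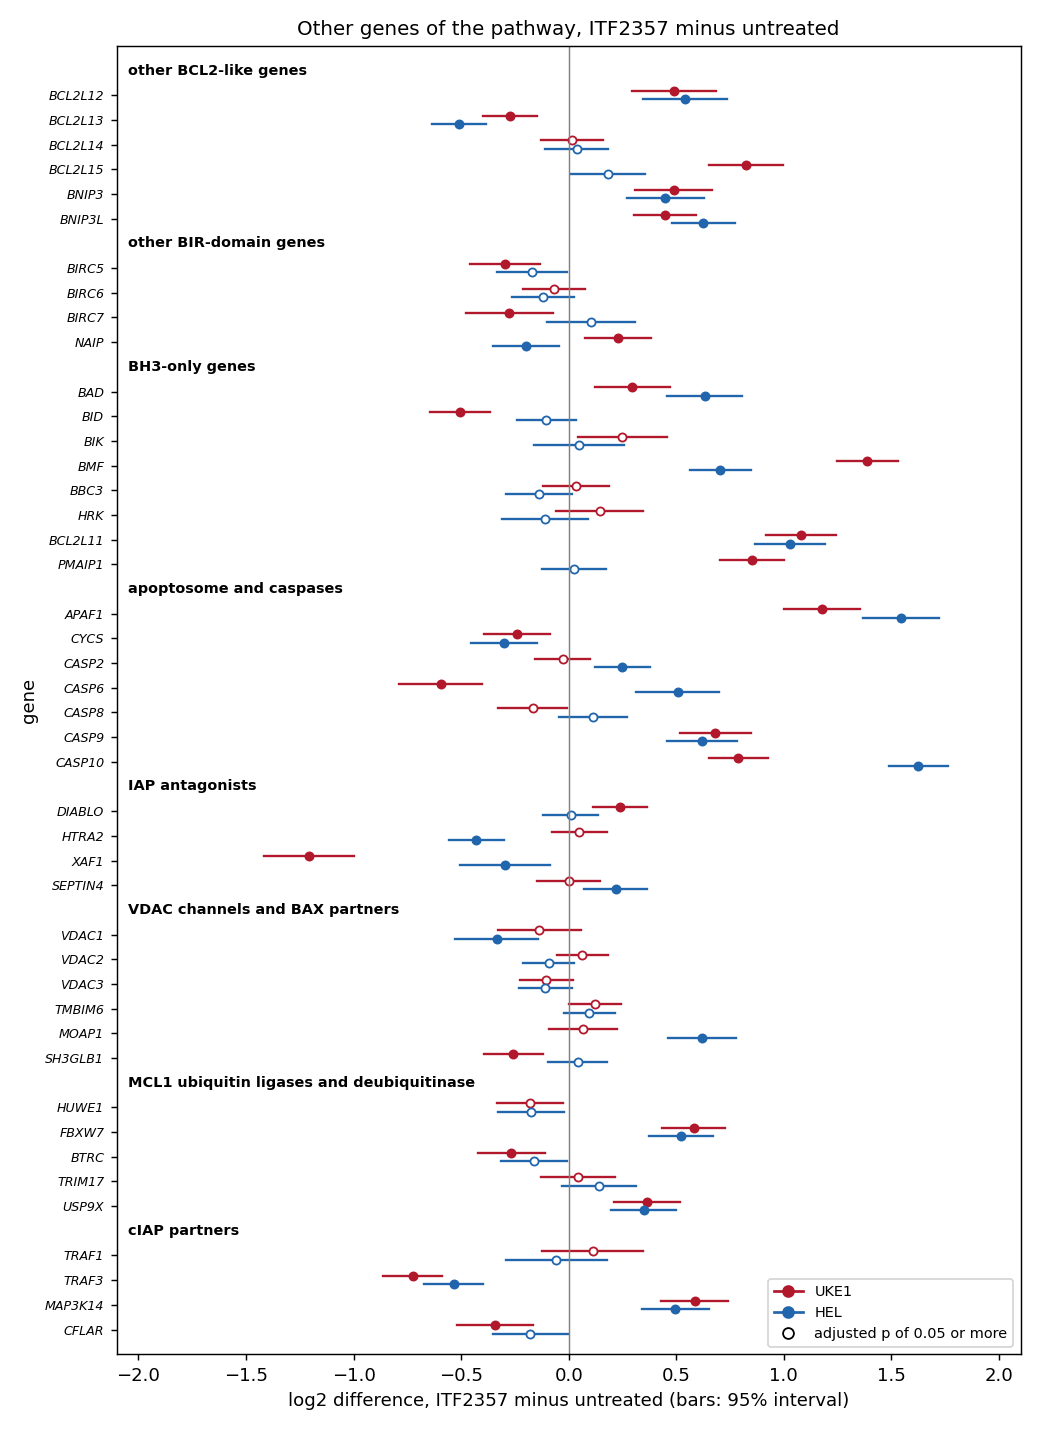
Change with ITF2357 (log2, treated minus untreated) of the 44 other measured genes of the pathway, by list, in UKE1 (red) and HEL (blue), with 95% intervals of the fit; filled points have an adjusted p under 0.05. APAF1, CASP10, BCL2L11 and BMF lie right of 0 in both lines, TRAF3 and XAF1 left, and CASP6 on opposite sides.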

How the data were processed

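Total RNA of 12 samples was hybridized to Affymetrix gene arrays. RMA in Affymetrix Expression Console made the deposited values, per the submitters' processing notes; software versions and the annotation's genome build were not stated there. No label states the base of the authors' values, which were taken as log2 because they run between 1.26 and 14.36 with array medians of 6.41 to 6.5.

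Of 33297 rows, 19460 carried 1 gene symbol in GEO's platform annotation, 1754 several and 12083 none. The highest-mean row was kept for 769 genes with more than 1, which left 18417; each member had 1 row, and none shared a row with another gene. Group means were fitted over all 12 arrays in R 4.3.3 with limma 3.58.1, using lmFit and eBayes on 8 residual degrees of freedom. Contrasts were the drug response of each line, their difference, and UKE1 minus HEL treated and untreated. The two-sided p-values were adjusted by Benjamini-Hochberg over 18417 genes (threshold 0.05). The fit was also run on simulated data with independent noise and few changed genes. Those settings differ from these arrays, so that run does not show how the fit performs on them. Precision is limited by the number of arrays.

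The members, lists and tests were chosen with earlier results of these data known. All 10 members were named in every contrast; from each other pathway list, up to 4 genes with the smallest adjusted p among those called in a line; and for likeness, the 3 nearest genes. Comparisons that share groups are not independent. Alternatives were 2 other scalings, a filter on dim genes, the mean of a gene's rows, all rows, a trended robust prior, the replicate block, the compared arrays alone and each array left out. Promoter windows came from a RefSeq table (GRCh38.p14).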

Additional observations from a re-analysis of the deposited data

Results flagged for a closer look

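The difference between the drug responses of the lines was called for 2 of the 10 genes. BCL2 responded with -0.82 more in UKE1 than in HEL (log2, UKE1 minus HEL, limma adjusted p = 0.000179), where all 3 treated UKE1 arrays lay below the untreated ones and the HEL groups overlapped. Over the arrays left out 1 at a time this difference was -0.87 to -0.74. BIRC2 responded with 0.36 more in UKE1 than in HEL (adjusted p = 0.017), with treated arrays above untreated ones in UKE1 and below them in HEL. With 1 array left out it was 0.30 to 0.41 (adjusted p at most 0.0439), but after median centring it was 0.30 and no longer called (adjusted p = 0.0552).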

How the results depend on the processing

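No called change of a member changed sign under any setting. Over the settings other than leaving out arrays, 363 member changes kept their status as called or not called. Another 9 lost a call and 3 gained one. Status does not cover size: between treated lines MCL1 differed by -0.55 as deposited and by -0.37 after quantile normalization. With 1 of 12 arrays left out, 577 kept their status, 20 lost a call and 3 gained one. The BCL2A1, BIRC2, BCL2L10, MCL1 and BAK1 values given with their results account for these; the causes were not tested. Median centring left 1 member called for the difference of the responses, and the share of its calls that were higher in UKE1 was 30.6%, against 42.2% as deposited. With only the genes above the median gene, BCL2A1, BCL2L10 and BOK were not tested, and 7295 genes differed between the treated and 7381 between the untreated lines; with all rows 19169 and 19147 did, since fewer or more rows were tested. Deviations of same-numbered arrays correlated at r of 0.0302 to 0.0348 in UKE1, -0.0877 to 0.0645 in HEL, -0.0733 to 0.0043 across the treated lines and -0.0143 to 0.122 across the untreated lines. In no comparison did every pair exceed 0.1, so the numbers were not taken to pair the samples. The replicate block gave 8106 called genes in UKE1 and 7769 in HEL, left 7 members called in each line and changed no member's call. Signal over background is not known for any row, and precision rests on 3 arrays a group.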
